A study of Bos taurus with 12 samples.

Results

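GDF9, BMP15 and KIT are 3 genes through which a growing oocyte and the follicle cells around it signal to each other. They were followed here through every probe set of a bovine expression array that its annotation assigns to 1 of these symbols alone. That rule uses no measured value and gave 7 of the 24016 probe sets that are not array controls: 1 for GDF9, 2 for BMP15 and 4 for KIT. In the order of their mean signal, the BMP15 probe sets are called BMP15-a (Bt.22954.1.S1_at) and BMP15-b (Bt.22954.1.A1_at). The KIT probe sets are called KIT-a (Bt.26445.1.A1_at), KIT-b (Bt.12804.1.A1_at), KIT-c (Bt.12804.1.S1_at) and KIT-d (Bt.27675.1.A1_at), and GDF9 is read by Bt.7047.1.S1_at. The annotation does not say which part or strand of the transcript each probe set reads. In the RefSeq table of the cattle assembly ARS-UCD2.0, the nearest protein-coding genes are SHROOM1 and UQCRQ for GDF9, SHROOM4 and NUDT10 for BMP15, and PDGFRA and KDR for KIT.

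GDF9 and BMP15 are secreted proteins of the transforming growth factor beta family that the oocyte makes and that act on granulosa and cumulus cells. Both are made as precursors that proprotein convertases such as FURIN cut, and both use the type II receptor BMPR2. GDF9 signals mainly through the type I receptor TGFBR1 and SMAD2 or SMAD3, and BMP15 through BMPR1B and SMAD1, SMAD5 or SMAD9. KIT runs the other way: it is a receptor tyrosine kinase on the oocyte surface whose ligand, KITLG, comes from granulosa cells, and it acts through the PI3 kinase, RAS and SRC family pathways. During maturation in vitro, an oocyte at the germinal vesicle (GV) stage resumes meiosis and stops at metaphase II (MII). Transcription is largely silent over this time, and stored mRNAs lose or gain poly(A) tails.

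Oocytes came from Japanese Black cattle, either adult cows, whose ovaries were taken at slaughter, or prepubertal heifers of 9 to 12 months, whose ovaries were removed on farms. For both ages, follicles of 2 to 8 mm were aspirated. GV oocytes were used at once, and MII oocytes were picked by their polar body after 20 to 22 h of maturation in serum-supplemented medium. Each of the 4 groups had 3 arrays, and each array held amplified RNA from a pool of 50 oocytes stripped of cumulus cells. The labels call the 3 pools biological replicates but name no animals, so p-values measure the spread between pools. Values are the deposited log2 signals, which come from probes of unknown affinity, so that only the same probe set is compared between arrays.

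The oocyte label was checked with 7 measured oocyte genes of a list of 24 that excludes the 3 genes studied here: ZP2, ZP3, ZP4, NLRP5, KPNA7, MOS and OOEP. On 9 arrays their median exceeded that of the whole array by 4.298 to 8.037 log2 units. In GV prepubertal replicate 1 it lay at -2.64, in GV adult replicate 1 at 0.76 and in MII prepubertal replicate 1 at 0.70, with the zona pellucida gene ZP2 at 4.99, 10.05 and 7.98. These 3 arrays are called arrays without an oocyte profile, meaning under 2 log2 units, a bound set after the values were seen. Markers of cumulus and granulosa cells (27 measured genes of 30) lay 2.11 and 3.30 above the array median in the prepubertal ones and -0.50 in the adult one, against -1.21 to 0.51 in the other 9. Markers of mast cells and other KIT-positive cells (6 measured of 11) lay at -2.18 to -1.37 on the 3 arrays and at -2.59 to 0.35 on the remaining 9. Adult MII oocytes are the only group with no such array, so every comparison is given both over 12 arrays and over the 9. Every array has the same trimmed mean of 500, so neither fewer oocytes nor less RNA per oocyte in a pool can be read from its values. For 19 measured markers of theca and stroma, the prepubertal arrays without an oocyte profile gave medians of 0.82 (GV) and 2.07 (MII) above the array median. The adult one gave 0.38, and the other 9 ranged between -1.09 and -0.10. Why the 3 arrays lack an oocyte profile was not tested.

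BMP15 read high on all 9 arrays with an oocyte profile and low on the other 3. BMP15-a read 14.21 and 14.72 in the GV prepubertal arrays with an oocyte profile, 15.10 and 14.56 in GV adult, 14.77 and 14.70 in MII prepubertal, and 15.08, 14.78 and 14.57 in MII adult. The 9 values gave a mean of 14.72 ± 0.27 (SD), and the ranges of all 4 groups met. In the 3 arrays without an oocyte profile BMP15-a read 7.08 (GV prepubertal), 6.47 (GV adult) and 6.55 (MII prepubertal), or -7.64, -8.25 and -8.17 log2 units relative to that mean. BMP15-b followed it: 12.60 to 14.22 in the 9 arrays (mean 13.74 ± 0.59, SD) and 5.70, 6.08 and 6.91 in the same 3. The lowest of the 9 BMP15-b values belonged to MII adult replicate 3, where BMP15-a read 14.57.

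GDF9 was split between the arrays in the same way. It read 13.58 and 14.35 in the GV prepubertal arrays with an oocyte profile, 12.71 and 13.73 in GV adult, 13.15 and 12.09 in MII prepubertal, and 12.97, 13.34 and 12.95 in MII adult. The mean of the 9 was 13.21 ± 0.65 (SD). The arrays without an oocyte profile gave 7.47 (GV prepubertal), 9.29 (GV adult) and 6.27 (MII prepubertal), or -6.94 to -3.92 relative to it. In order of their means over the 9 arrays, the groups ran GV prepubertal (13.97), GV adult (13.22), MII adult (13.09) and MII prepubertal (12.62). Neighbours in this order overlapped in their values, while those of GV prepubertal lay above those of both MII groups. Between the GV and MII prepubertal arrays with an oocyte profile, 40.2% of all probe sets did not overlap. The share between GV prepubertal and MII adult was not counted.

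**Figure D1:**
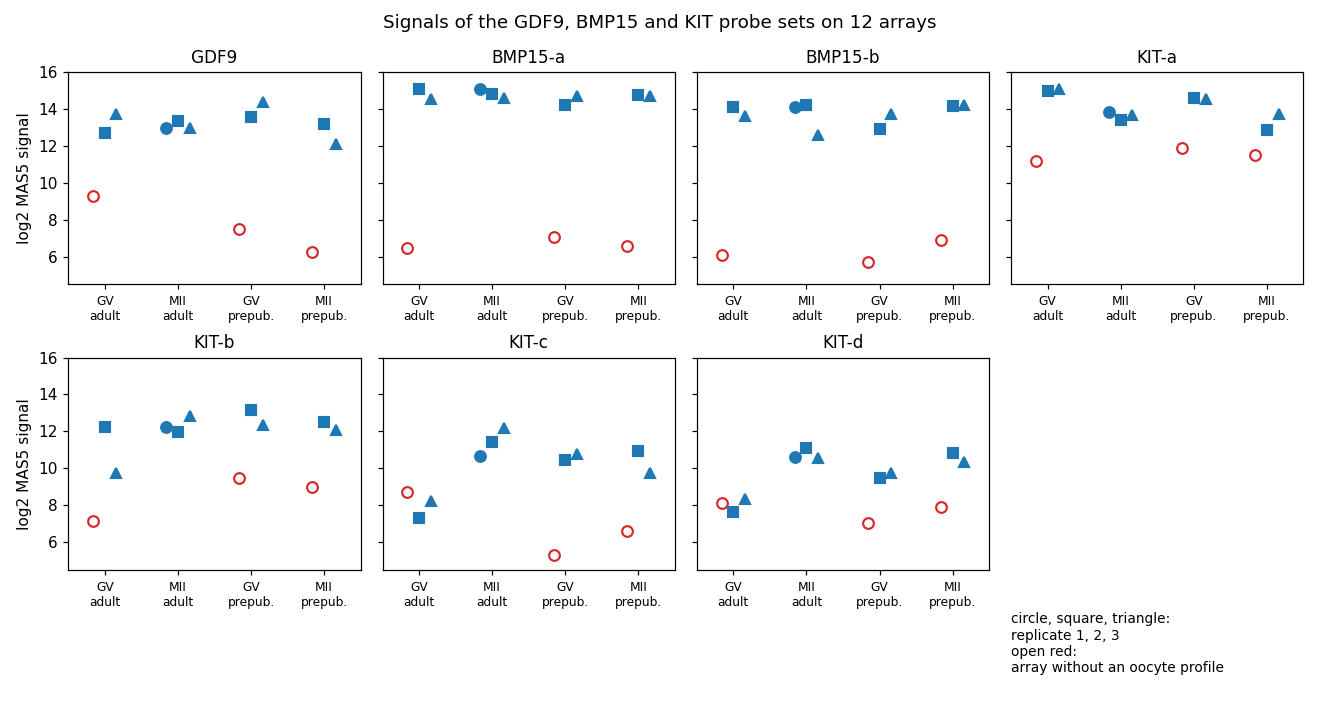
Log2 signal of the 7 probe sets (vertical axis) on each of the 12 arrays, by group (horizontal axis). Filled points are the 9 arrays with an oocyte profile and open points the 3 without. The open points of BMP15-a lie at 6.47 to 7.08, far below its filled points at 14.21 to 15.10, while those of KIT-a lie at 11.16 to 11.87, under its filled points at 12.86 to 15.07.

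The 4 KIT probe sets differed among themselves in how far they fell short in the arrays without an oocyte profile. KIT-a read 11.87 (GV prepubertal), 11.16 (GV adult) and 11.48 (MII prepubertal) there, or -2.90 to -2.19 log2 units relative to its mean of 14.06 ± 0.75 (SD) in the 9 arrays. For BMP15-a the same arrays gave -8.25 to -7.64. KIT-b lay at -4.96 to -2.64 relative to its own mean of the 9, KIT-c at -4.90 to -1.46 and KIT-d at -2.79 to -1.71. The ranges of KIT-b and KIT-c overlapped that of GDF9, -6.94 to -3.92. On these 3 arrays KIT-a still exceeded 93.7% to 98.1% of the probe sets of its array. The share was 20.3% to 56.9% for KIT-c, 38.8% to 68.4% for KIT-d and 26.1% to 50.4% for BMP15-a. KIT-c and KIT-d had means of only 10.2 and 9.8 in the 9 arrays, so their drops had less room than that of BMP15-a. In the deposited values, KIT-c (8.74) and KIT-d (8.13) of GV adult replicate 1 lay within the range of the 9 arrays. So did KIT-d (7.92) of MII prepubertal replicate 1. Once array medians were subtracted, KIT-c (0.436) and KIT-d (-0.174) of GV adult replicate 1 lay below the lowest of the 9 (1.055 and 1.337). KIT-d of MII prepubertal replicate 1 still lay within the range. The part that KIT mRNA of other cells had in these signals was not tested; the 6 measured markers of such cells, which include genes of mast cells and pigment cells, are given above as a list.

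**Figure D2:**
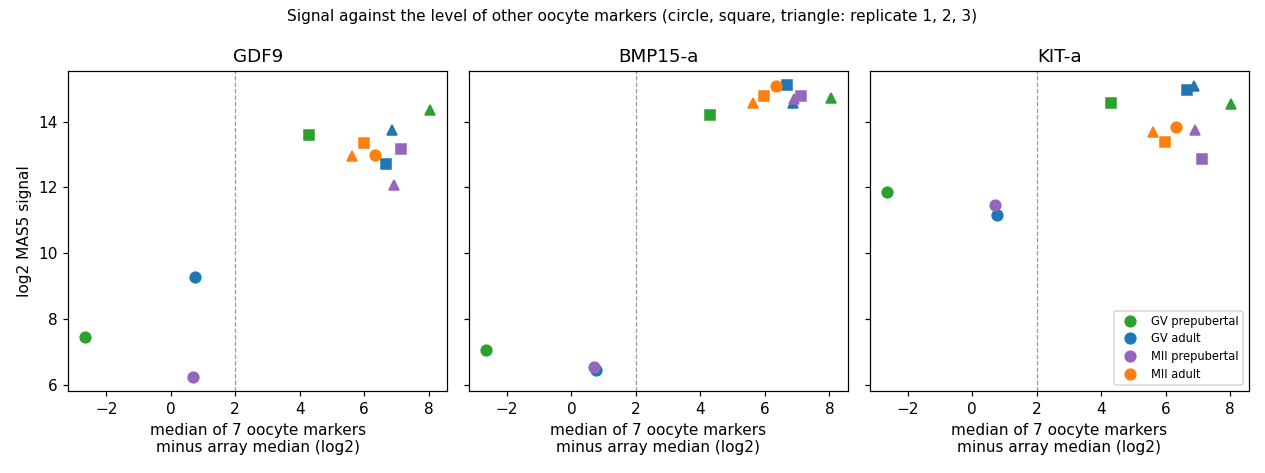
Log2 signal of GDF9, BMP15-a and KIT-a (vertical axis) against the median of the 7 other oocyte markers minus the array median (horizontal axis, log2 units) on 12 arrays. The dashed line is the bound of 2. Relative to the mean of its own 9 points to the right, the 3 points left of it lie at -6.94 to -3.92 for GDF9, -8.25 to -7.64 for BMP15-a and -2.90 to -2.19 for KIT-a. KIT-b, KIT-c and KIT-d are not drawn.

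Within the 9 arrays, the 4 KIT probe sets did not follow one pattern over the groups. KIT-a read 14.56 and 14.52 in GV prepubertal, 14.95 and 15.07 in GV adult, 12.86 and 13.74 in MII prepubertal, and 13.83, 13.37 and 13.67 in MII adult. All 4 GV values lay above all 5 MII values. Of all probe sets, 7.36% did not overlap between the stages in these arrays. With the array medians subtracted, KIT-a of GV prepubertal replicate 2 (7.05) lay among the MII values (6.93 to 8.11), so the stages overlapped. KIT-d ran the opposite way. It read 9.46 and 9.73 in GV prepubertal and 7.62 and 8.36 in GV adult. At MII it read 10.83 and 10.34 in prepubertal donors and 10.59, 11.11 and 10.57 in adults, so that all 5 MII values lay above all 4 GV values. With the array medians subtracted, KIT-d of GV prepubertal replicate 3 (4.08) lay above that of MII adult replicate 3 (4.05), so these too overlapped. KIT-c read 7.33 and 8.23 in GV adult, against 10.45 and 10.78 in GV prepubertal, 10.96 and 9.77 in MII prepubertal, and 10.66, 11.42 and 12.17 in MII adult. Its GV adult values were thus the low ones, and the other 3 groups overlapped. KIT-b read 13.18 and 12.35, 12.26 and 9.73, 12.52 and 12.07, and 12.23, 11.96 and 12.84 in the same order of groups as KIT-a. Only its value for GV adult replicate 3, 9.73, stood below the rest.

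Maturation in adults was compared first. Over 12 arrays, 0 of the 7 probe sets passed an adjusted p of 0.05 (limma, Benjamini-Hochberg over 14409 probe sets), as did 0% of all probe sets tested. At an unadjusted p under 0.05, 2 of 7 passed against 7.93% of all: KIT-c was 3.32 log2 units higher at MII (standard error, SE, 1.43, adjusted p = 0.601) and KIT-d 2.72 higher (SE 1.13, adjusted p = 0.595). The values of these 2 probe sets did not overlap between GV and MII adults on the 3 arrays of each, a pattern that 15.3% of all probe sets shared. BMP15-a was 2.77 higher at MII (SE 2.37, adjusted p = 0.727) and GDF9 1.18 higher (SE 1.82, adjusted p = 0.853), values that include the 1 GV adult array without an oocyte profile.

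With only the 9 arrays in the fit, the adult maturation differences of the 2 ligands lay near 0. BMP15-a differed by -0.02 (SE 0.34), BMP15-b by -0.23 (SE 0.52) and GDF9 by -0.13 (SE 0.53), with adjusted p from 0.911 to 0.990. KIT-a was 1.39 lower at MII (SE 0.40, adjusted p = 0.174), KIT-c 3.64 higher (SE 0.90, adjusted p = 0.138), KIT-d 2.77 higher (SE 0.89, adjusted p = 0.225) and KIT-b 1.35 higher (SE 0.74, adjusted p = 0.535). Again 0 of 7 passed the adjusted threshold, against 0.118% of all probe sets. At unadjusted p under 0.05, 3 of 7 passed against 11.4%. The groups of these 3 did not overlap, which held for 28% of all probe sets when 2 arrays are set against 3.

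In prepubertal donors, 0 of 7 passed over 12 arrays (0% of all) and 0 of 7 at unadjusted p under 0.05 (3.41% of all). The values of GV and MII overlapped for every probe set (9.72% of all did not). The fit over the 9 arrays gave 0 of 7 (0% of all), and 2 of 7 had an unadjusted p under 0.05 against 6.99%: GDF9, 1.35 lower at MII (SE 0.58, adjusted p = 0.682), and KIT-a, 1.25 lower (SE 0.44, adjusted p = 0.667). KIT-d was 0.98 higher (SE 0.98), KIT-c 0.25 lower (SE 0.99) and BMP15-a 0.27 higher (SE 0.38). The 2 GV and 2 MII values did not overlap for GDF9, KIT-a, KIT-d and BMP15-b, as for 40.2% of all probe sets.

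**Figure D3:**
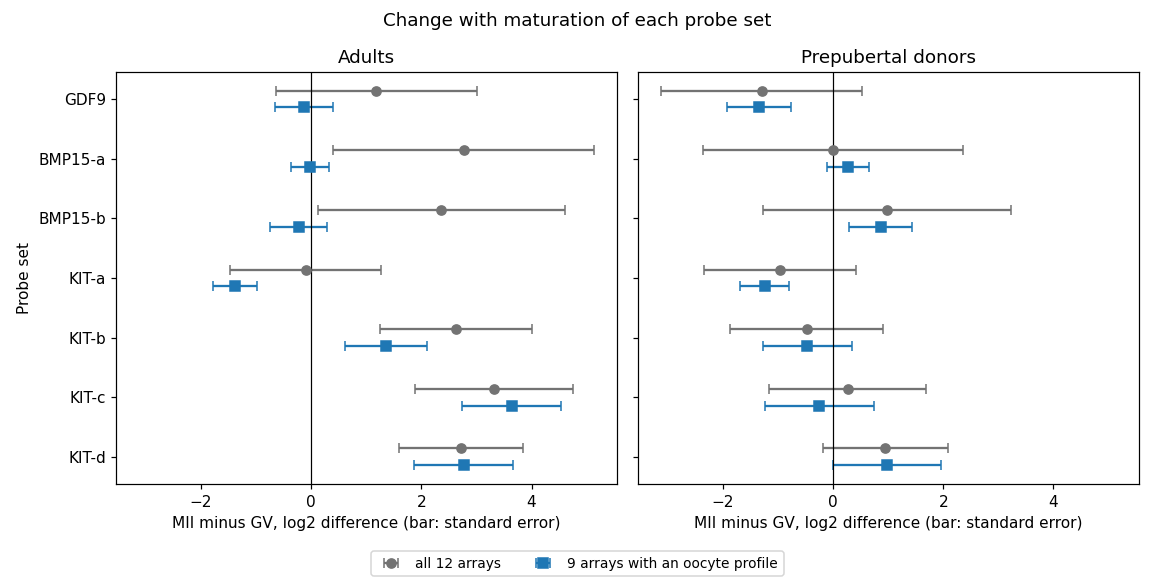
MII minus GV difference (horizontal axis, log2 units) of each probe set (vertical axis) in adults and in prepubertal donors, with SE bars from limma. Circles use 12 arrays and squares the 9 with an oocyte profile. In adults the squares of GDF9 and both BMP15 probe sets lie at -0.23 to -0.02, that of KIT-a at -1.39 and those of the other KIT probe sets at 1.35 to 3.64.

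Whether maturation differed between the ages was tested as the interaction, the prepubertal change minus the adult change. Over 12 arrays it had 0 of 7 calls at an adjusted p of 0.05 (0% of all) and 0 at the unadjusted one (1.21% of all). The 9 arrays gave 0 of 7 (0% of all) and 1 of 7 (3.06% of all). The 1 was KIT-c, whose change was 3.64 in adults and -0.25 in prepubertal donors, a difference of -3.89 (SE 1.34, adjusted p = 0.999). KIT-a changed alike in sign at both ages, with an interaction of 0.14 (SE 0.59).

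Averaged over both ages, maturation again gave 0 of 7 calls over 12 arrays (0% of all), with 1 of 7 at unadjusted p under 0.05 against 10.7% of all. That 1 was KIT-d, higher at MII by 1.83 (SE 0.80, adjusted p = 0.437). An exact two-sided permutation test of its arrays within each age gave p = 0.025 over 400 arrangements, or 0.175 adjusted over the 7 probe sets. GV and MII values overlapped for every one of the 7 over all 12 arrays (0.951% of all did not). KIT-a was 0.53 lower at MII (SE 0.97, adjusted p = 0.844).

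The averaged difference of KIT-a over the 9 arrays was -1.32 (SE 0.30), with an adjusted p of 0.0581, so that 0 of 7 passed against 0.722% of all probe sets. At unadjusted p under 0.05, 3 of 7 passed against 14.1%. KIT-d was 1.88 higher at MII (SE 0.66, adjusted p = 0.21) and KIT-c 1.69 higher (SE 0.67, adjusted p = 0.266), while GDF9 was 0.74 lower (SE 0.39, adjusted p = 0.422). The 4 GV and 5 MII values did not overlap for KIT-a and KIT-d, nor for 7.36% of all probe sets. This held for the deposited values, while with the array medians subtracted the stages overlapped for both. The exact permutation p of both was 0.0167, the smallest that 60 arrangements allow, and 0.0583 adjusted over the 7. Without MII adult replicate 3 the adjusted p of KIT-a was 0.0277, and without MII prepubertal replicate 2 it was 0.297, with differences of -1.33 and -1.09.

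The opposite signs of the KIT probe sets can be followed within each array, where a difference between 2 probe sets of 1 gene does not depend on how the array was scaled. This comparison was added after the values were seen. The log2 signal of KIT-a minus that of KIT-d was 4.82, 5.10 and 4.79 on the GV prepubertal arrays, 3.03, 7.33 and 6.71 on GV adult, 3.56, 2.03 and 3.41 on MII prepubertal, and 3.23, 2.26 and 3.10 on MII adult. Of the 6 GV arrays, only GV adult replicate 1, which has no oocyte profile, fell among the MII values. The difference was 2.36 log2 units smaller at MII, averaged over both ages: -2.36 (SE 0.98). In limma over 2913 such pairs of 1644 genes its adjusted p was 0.38. The exact permutation p was 0.015, or 0.105 adjusted over the 7 pairs of the members. Of all pairs, 11.8% had an unadjusted p under 0.05 and 0% passed the adjusted threshold.

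The same difference changed over the 9 arrays by -3.19 (SE 0.90, adjusted p = 0.24), with an exact permutation p of 0.0167, or 0.0778 adjusted. Its GV values (4.79 to 7.33) and MII values (2.03 to 3.41) did not overlap, as for 6.49% of all pairs. In these arrays KIT-a and KIT-d were each apart between the stages, in opposite directions. The gap in their difference and its exact p therefore follow from the values given above and are not a further result. At unadjusted p under 0.05 stood 12.9% of all pairs, and 0% passed adjustment. KIT-a minus KIT-c changed by -3.01 (SE 0.96, adjusted p = 0.27) and KIT-a minus KIT-b by -1.76 (SE 0.99, adjusted p = 0.481). KIT-c minus KIT-d changed by -0.18 (SE 0.90), and BMP15-a minus BMP15-b by -0.19 (SE 0.88, adjusted p = 0.951). KIT-b minus KIT-d changed by -1.43 (SE 1.03) and KIT-b minus KIT-c by -1.25 (SE 1.04). None of the 7 passed adjustment over the pairs of all genes.

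**Figure D4:**
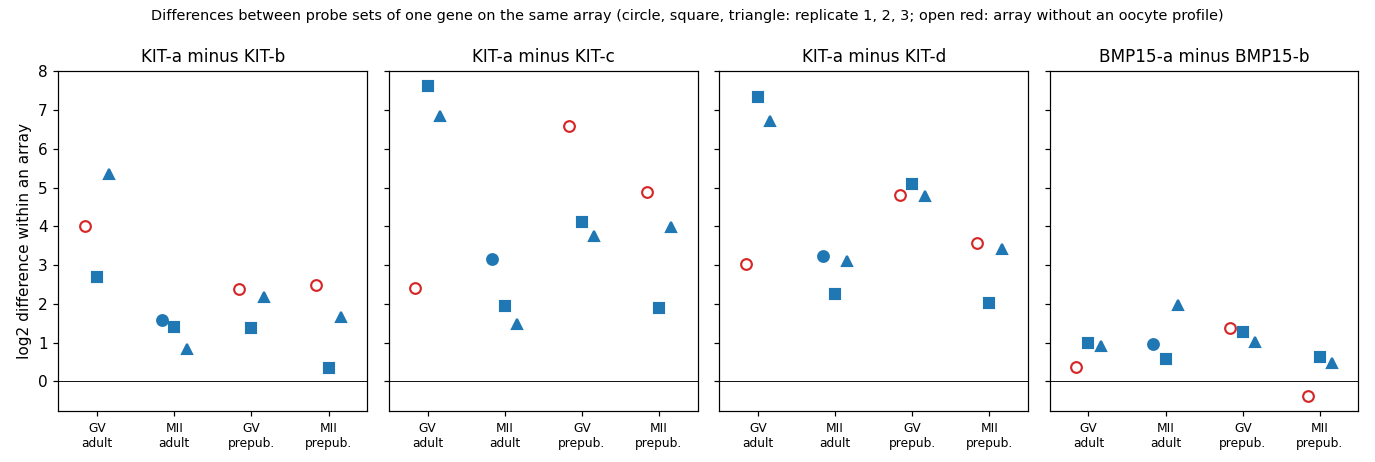
Log2 difference within an array (vertical axis) between KIT-a and each other KIT probe set, and between the BMP15 probe sets, by group (horizontal axis). Each point is 1 array and open points have no oocyte profile. For KIT-a minus KIT-d, the filled GV points lie at 4.79 to 7.33 and the filled MII points at 2.03 to 3.41. The filled points of BMP15-a minus BMP15-b lie at 0.475 to 1.964 over both stages.

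Donor age was compared at each stage. At GV, 0 of 7 passed over 12 arrays (0% of all), and 0 of 7 at unadjusted p under 0.05 (2.51% of all). The prepubertal minus adult difference was -0.11 for GDF9 (SE 1.82), -0.04 for BMP15-a (SE 2.37) and -0.07 for KIT-a (SE 1.38), and the values of all 7 overlapped (5.68% of all did not). In the 9 arrays 0 of 7 passed (0% of all) and 2 of 7 had an unadjusted p under 0.05 (4.64% of all): KIT-c, 2.83 higher in prepubertal donors (SE 0.99, adjusted p = 0.997), and KIT-b, 1.77 higher (SE 0.82, adjusted p = 1). GDF9 was 0.74 higher (SE 0.58) and BMP15-a 0.36 lower, at -0.36 (SE 0.38). With 2 arrays a side, the values of all KIT probe sets were apart, KIT-a lower and the others higher in prepubertal donors, as were those of 27.3% of all probe sets.

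At MII, 0 of 7 passed over 12 arrays (0% of all), and 0 of 7 at unadjusted p under 0.05 (2.66% of all). All 7 differences were negative, from -2.80 for BMP15-a (SE 2.37) and -2.59 for GDF9 (SE 1.82) to -0.93 for KIT-a (SE 1.38). MII prepubertal replicate 1, which has no oocyte profile, is in this comparison, and no values were apart (9.96% of all were). Without it, in the fit over the 9 arrays, BMP15-a differed by -0.08 (SE 0.34), GDF9 by -0.47 (SE 0.53) and KIT-a by -0.32 (SE 0.40). There 0 of 7 passed at either threshold (0% and 2.56% of all), and the values of every probe set overlapped (19.1% of all did not). Averaged over both stages, age gave 0 of 7 calls over 12 arrays (0% adjusted and 3.99% unadjusted of all) and over 9 (0% and 3.61%). The exact permutation p values ran from 0.385 to 0.875 over 12 arrays.

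The genes with the most similar profiles were found among 8979 probe sets with 1 symbol by the root mean square (RMS) difference of centred log2 values over 12 arrays. All points share the arrays and their scaling, and the 3 arrays without an oocyte profile widen the profiles unequally. The RMS spread of BMP15-a was 3.48 over 12 arrays and 0.26 over the 9, and that of GDF9 2.53 and 0.61. For KIT-a it was 1.275 and 0.708, and for KIT-d 1.36 and 1.12. For BMP15-a, whose own RMS spread was 3.48, the nearest were LRIG3 (0.56), the zona pellucida gene ZP4 (0.73), the mitotic kinase gene AURKA (0.82), MSX1 (0.85) and RGS16 (0.85). BMP15-b differed from BMP15-a by 0.56 and GDF9 by 1.42. For GDF9 (spread 2.53) the nearest were MAEL (0.68), IGF2BP3 (0.75), FER (0.76), RCAN3 (0.78) and the cyclin gene CCNB2 (0.78).

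KIT-a (spread 1.27) was nearest to the nucleoporin gene NUP107 (0.45), GOLGA7 (0.47), UBE2W (0.47), MEST (0.48) and MPHOSPH6 (0.51), KIT-b to NUP54 (0.51) and KIT-d to the replication gene MCM6 (0.52). KIT-c was nearest to RNF19B (0.79) and RTTN (0.88), followed by FYN, a SRC family kinase gene (0.97). KIT-a and KIT-d differed from each other by 1.60, more than the spread of either over the 12 arrays (1.27 and 1.36). Among the 9 arrays alone the nearest genes were others: ZC2HC1A for BMP15-a (0.13), ZP4 for GDF9 (0.37), PLEKHG1 for KIT-a (0.25) and SMARCA4 for KIT-d (0.35).

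The receptors and SMADs that carry the GDF9 and BMP15 signal were represented by 10 of 14 listed genes, all kept by the filter on dim probe sets. Over 12 arrays 0 of 10 were called in any of the 7 comparisons, as were 0% of all probe sets. For maturation averaged over both ages, 5 were higher and 5 lower, with a median of -0.07 against -0.20 for all probe sets. BMPR1B, the type I receptor gene of BMP15, had the smallest p of the list. It read 10.05 and 8.61 in GV prepubertal, 5.93 and 7.28 in GV adult, 11.38 and 10.30 in MII prepubertal, and 11.47, 11.27 and 13.29 in MII adult arrays with an oocyte profile, and 8.42, 10.87 and 9.34 in the 3 without (GV prepubertal, GV adult and MII prepubertal). In those 9 all 5 MII values lay above all 4 GV values, as 7.36% of all probe sets were apart in either direction. BMPR1B was there higher at MII by 3.46 (SE 0.75, adjusted p = 0.0498), the 1 gene of all lists that was called, against 0.722% of all probe sets. With the replicate number as a block it was 3.59 higher (adjusted p = 0.073), and with a term for a letter b that some array titles carry 3.48 higher (adjusted p = 0.144), so that both ended the call. Of the 9 arrays, only MII adult replicate 1 has the number 1, so the block takes that array out of the difference. Over 12 arrays the difference was 2.65 (SE 0.89, adjusted p = 0.36), and with 1 of the 9 arrays left out the adjusted p ran from 0.0367 (without MII adult replicate 3) to 0.258 (without MII prepubertal replicate 2). Leaving out any of the 8 other than MII adult replicate 3 ended the call. Other measured receptors were not called: BMPR2 differed by 0.60 (SE 0.53) and TGFBR1 by -0.31 (SE 1.28) over the 9 arrays.

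For KIT, 24 of 25 measured genes of a list of 43 were kept. The ligand gene KITLG read 5.62 to 8.39 in the 4 GV arrays with an oocyte profile and 5.34 to 9.15 in the 5 MII arrays, so the stages overlapped, and its difference was 1.23 (SE 1.05, adjusted p = 0.631). In the 3 arrays without an oocyte profile KITLG read 9.61 (GV prepubertal), 6.84 (GV adult) and 9.23 (MII prepubertal). Of the 24, 0 were called in any comparison over 12 or 9 arrays. Among all probe sets, 0% were called over 12 arrays and at most 0.722% over the 9, so this count does not set the list apart. In averaged maturation over the 9 arrays, 4 of the 24 had an unadjusted p under 0.05, against 14.1% of all probe sets, and all 4 were higher at MII. They included BRAF, a RAF kinase gene (3.68, SE 1.08, adjusted p = 0.136), and FYN (1.88, SE 0.51, adjusted p = 0.116). FYN read 9.72 and 8.84 in GV adult, 11.55 and 11.30 in GV prepubertal and 11.89 to 12.56 at MII, so that its GV adult values were the low ones, as for KIT-c. The list's median was 0.36 against -0.07 for all probe sets.

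The convertase gene FURIN, the 1 kept of 2 measured and 4 listed, read 10.23 to 11.56 at GV and 8.33 to 12.20 at MII in the 9 arrays and 8.87, 6.75 and 6.81 in the other 3. POU5F1, the 1 measured of 9 listed transcription regulators of oocyte genes, differed by 1.48 with maturation over the 9 arrays (adjusted p = 0.541). Of 22 cumulus genes known to respond to oocyte factors, 19 were measured and 14 kept, and 0 were called over 12 or 9 arrays. The share of all probe sets called was 0% over 12 arrays and at most 0.722% over the 9. PTX3, a matrix protein gene of expanding cumulus cells, read 14.66 and 14.53 in the GV and MII prepubertal arrays without an oocyte profile and 7.61 in the GV adult one. It read 1.92 to 4.46 in the 4 GV and 5.40 to 8.74 in the 5 MII arrays with one, a difference of 3.93 (SE 1.14, adjusted p = 0.136). Of all probe sets, 7.36% did not overlap between the stages in these arrays. Of the 14 kept genes, 9 were higher and 5 lower at MII there. TNFAIP6 ran against PTX3, at 4.56 to 7.41 in the GV and 0.29 to 4.28 in the MII arrays. Both are dim in the 9 arrays, where their means lay under the filter level of 5.57. They were kept only through the 3 arrays without an oocyte profile, which the filter's mean includes. All 4 GV values of PTX3 lay below their array medians (5.65 to 7.52), and all 5 MII values of TNFAIP6 below theirs (5.64 to 6.52). Both stage differences thus rest on dim signals. Among the adult arrays of the 9, the PTX3 signal was 1.92 and 3.42 before maturation and 6.14, 6.28 and 5.40 after it. The median of the cumulus and granulosa marker list, which holds PTX3, lay at -0.94 and -1.16 in these GV adult arrays and at -1.21, -1.06 and -0.85 in MII adult. In prepubertal donors it lay at -1.20 and 0.19 at GV and at 0.13 and 0.51 at MII, so that its values overlapped between the stages at both ages. Its part in the PTX3 difference was not tested.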

How the data were processed

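RNA of 12 oocyte pools was hybridised to 1-colour Affymetrix bovine arrays. The deposited values are log2 signals, for which the submitters' processing notes name MAS5, with no version. On each array the linear mean without the lowest and highest 2% was 500, so nothing was rescaled. Of 24128 probe sets, 112 controls were left out, and 14409 with a mean above the 40th percentile (5.57) were kept, all 7 members among them. Symbols came from the platform annotation through Entrez identifiers, 99.8% of which matched RefSeq. Of 24016 probe sets, 13292 had 1 symbol, 86 several and 10638 none, giving 9155 genes. Detection calls and genome coordinates were not used here. Array medians ran from 5.64 to 8.30, and 3 arrays a group limit the precision.

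All 12 arrays entered 1 fit of group means with limma 3.58.1 in R 4.3.3 (8 residual degrees of freedom, eBayes with intensity trend), tested on simulated data. P values were adjusted by Benjamini-Hochberg over the 14409 probe sets at 0.05. The fit over the 9 arrays has 5 residual degrees of freedom. Exact two-sided permutation tests moved arrays between the groups compared within the other factor. Members and lists were chosen with earlier results of these data known. Named were every member, list genes past the threshold, ligands, receptors, up to 4 list genes with the smallest p, and the 5 most similar genes of each member; not all are printed. Alternatives were quantile normalization, median centring, a filter at the 60th percentile or none, adding 32 to the linear values, fitting the compared groups by themselves, a replicate block, a term for the letter b, found in the titles of 4 of the 6 GV arrays and 0 of the 6 MII arrays and so partly tied to stage, eBayes without trend, averaging the probe sets of a gene, and leaving out each array. The fits over 9 arrays, also with the block or the letter b, and the differences between probe sets were added after seeing the data.

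Whether replicate numbers pair arrays was checked by correlating deviations from group means. The same-numbered GV and MII prepubertal arrays gave 0.609, 0.149 and 0.306, over the bound of 0.1. Prepubertal and adult arrays of the same number gave 0.383, -0.021 and 0.381 at GV, and -0.093, 0.096 and -0.074 at MII. Replicate 1 has no oocyte profile in either prepubertal group or in GV adult, and its part in these correlations was not tested. They therefore do not settle whether arrays are paired, and the labels state no pairing. The replicate block uses these numbers, while the fits of group means and the exact tests do not. Adult GV and MII arrays gave -0.105, 0.015 and -0.085, which does not pair them.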

Additional observations from a re-analysis of the deposited data

How the results depend on the processing

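Every alternative over all 12 arrays, or with 1 of them left out, left 0 of the 7 probe sets called in each of the 7 comparisons. The exact tests gave 0 of 7 with a pseudocount, with median centring, over the 9 arrays and with 1 array left out. They were not run with the other alternatives. Over the 9 arrays, 60 arrangements allow no p under 0.0167, and KIT-a and KIT-d at that p adjusted to 0.0583. The count over the 9 is therefore largely set by the number of arrangements and does not measure how stable the result is. With the replicate number as a block, the count was 0 of 7 in each comparison, with a lowest adjusted p of 0.398 for maturation in adults; over all 12 arrays the block changed no call. Over the 9 arrays with the block it was again 0 of 7 in each comparison, with KIT-a at -1.37 (adjusted p = 0.0598) for averaged maturation. The call of BMPR1B ended there (3.59, adjusted p = 0.073). Of the 9 arrays, only MII adult replicate 1 has the number 1, so the block fits that array exactly. The differences with the block thus come from the arrays numbered 2 and 3. Over the 9 arrays, 1 of 7 was called for maturation averaged over both ages with quantile normalization (KIT-a, -1.20, adjusted p = 0.0487), and leaving out 1 of the 9 arrays gave 0 to 1. The shares of all probe sets called in these settings are not given here, so the calls are not read as particular to KIT-a. In the plain fit over the 9 arrays the share was 0.722%. Median centring of the 9 gave -0.86 for KIT-a (adjusted p = 0.523). Of the list genes, 1 (BMPR1B) was called over the 9 arrays. Its difference stayed positive, but its adjusted p was 0.0578 with quantile normalization of the 9, 0.118 with median centring and 0.144 with the letter b (3.48). With the letter b, averaged maturation over the 9 arrays had 2 calls among all probe sets in place of 104, and KIT-a was -1.34 (adjusted p = 0.147). Median centring gave 0 calls, with 1925 probe sets at an unadjusted p under 0.05 in limma.

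Signs of uncalled differences changed as follows, and the causes were not tested. Leaving out 1 of 12 arrays, MII minus GV in adults ran from -0.02 to 4.296 (BMP15-a), -0.23 to 3.78 (BMP15-b), -0.13 to 2.09 (GDF9) and -1.39 to 0.57 (KIT-a). In prepubertal donors it ran from -2.46 to 2.73 (BMP15-a), -1.56 to 3.40 (BMP15-b), -3.46 to 0.82 (GDF9), -1.57 to 0.62 (KIT-b) and -1.51 to 1.52 (KIT-c). Prepubertal minus adult at GV ran from -2.82 to 2.42 (BMP15-a), -1.42 to 2.05 (GDF9) and -1.35 to 0.82 (KIT-a). With the letter b as a covariate, the adult change was -0.28 (BMP15-b) and -1.01 (GDF9), and the prepubertal one -2.62 (BMP15-a), -1.67 (BMP15-b) and -0.77 (KIT-c). Median centring gave KIT-a 0.68 in adults and 0.31 averaged, and KIT-b 0.43 in prepubertal donors. Quantile normalization gave 0.28 (BMP15-a) and 0.21 (GDF9) for age at GV. The mean of the KIT probe sets changed by 2.14 in adults, by -0.059 in prepubertal donors and by 1.04 averaged, and differed by 0.83 for age at GV.

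Over the 9 arrays, the adult change was -0.02 (BMP15-a), -0.23 (BMP15-b) and -0.13 (GDF9), the prepubertal change of KIT-c -0.25, and the age difference of GDF9 at GV 0.74. With the block as well, these were -0.155, -0.471, -0.075, -0.25 and 0.742, and BMP15-a was 0.058 for age at MII. With the letter b added, they were -0.013, -0.31, -0.58, -0.56 and 0.74, and KIT-b was 0.38 in prepubertal donors. With quantile normalization, KIT-c was -0.43 in prepubertal donors, GDF9 0.95 for age at GV and BMP15-a 0.12 for age at MII. With median centring, the adult change was -0.13 (BMP15-b) and -0.033 (GDF9), KIT-b was 0.33 in prepubertal donors, GDF9 0.41 for age at GV, and for age at MII BMP15-a was 0.30 and KIT-a 0.049.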
